A study of Mus musculus with 38 samples.

Results

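The 9 genes described here were grouped as liver genes linked to pulses of growth hormone: Cyp4a12a, Cyp4a12b, Cyp2d9, Elovl3, Hsd3b5, Nudt7, Slco1a1, Mup20 and Bcl6. Whether pulses sustain each of these genes was not tested. They were chosen by name with earlier results of these data known, so counts over them are descriptions. Each was read from the array probe with the highest mean, so that 9 of the 22485 genes on the array are described. All 9 had a probe and none was filtered out, and their mean levels all lay above the median of the gene means, 6.17 on the log2 intensity scale.

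Growth hormone reaches the male rodent liver in separate pulses and the female liver almost continuously. Each pulse acts through the growth hormone receptor and the kinase Jak2 to activate the transcription factor Stat5b, and this rhythm keeps a set of genes higher in male than in female liver. Insulin acts on the same hepatocytes through the insulin receptor, whose signal keeps the transcription factor FoxO1 out of the nucleus.

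Liver RNA was hybridised to Agilent two-colour arrays, and every dye channel forms 1 sample, given in log2 intensity. All mice were males, 11 to 12 weeks old, of a strain mixed from FVB/N and C57Bl/6. A mouse that is singled out is called by its title in the labels. LIRFKO mice lacked both the insulin receptor and FoxO1, and LIRKO mice lacked the insulin receptor alone, in each case through a Cre recombinase driven by the albumin promoter, which is active in hepatocytes, so that other liver cells keep the genes. IR/FoxO1 floxed mice were the controls of the LIRFKO line and IR floxed mice those of the LIRKO line, and the labels give them as floxed controls. Mice were fasted (overnight in one label, 24 h in another), refed for 6 h after the fast, or given glucose after the fast and killed 60 min later. LIRFKO groups held 3 fasted, 4 refed and 3 glucose mice, and LIRKO groups 3, 4 and 3. IR/FoxO1 floxed groups held 3 fasted and 3 refed mice, with no glucose group. IR floxed groups held 4 fasted, 4 refed and 3 glucose mice. The 37 samples lay on 20 arrays of 5 slides, and column medians ran from 5.72 to 5.78. Array values have no read depth, and the number of mice limits the precision.

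The deleted genes were checked first. Insr, the insulin receptor, changed by -1.76 ± 0.23 on the log2 scale in fasted LIRKO against IR floxed livers (SE, limma adjusted p = 1.32e-05). The change was -1.51 ± 0.21 when refed (adjusted p = 1.16e-05) and -1.19 ± 0.24 after glucose (adjusted p = 0.00216). Foxo1 averaged 6.92, 6.73 and 6.33 in fasted, refed and glucose LIRFKO livers. The fasted IR/FoxO1 floxed mouse IRF.fl_Fast_523 went against its label: its Foxo1 level was 6.77, against 10.57 and 10.17 in the other 2 fasted mice labelled IR/FoxO1 floxed, and its Insr level was 6.90, against 8.27 and 8.14. It was kept, and the changes named below that use its group are also given without it. With it, neither deleted gene passed in fasted LIRFKO against IR/FoxO1 floxed livers (Foxo1 -2.44, limma adjusted p = 0.254; Insr -0.99, adjusted p = 1.0). Without it both did (Foxo1 -3.56, adjusted p = 1.65e-10; Insr -1.39, adjusted p = 0.00564). The mouse was singled out by its levels of these same genes, so those values are no independent check of the labels. Another mouse, IRF.KO_GTT_724, whose labels conflict on its treatment, was left out of every comparison. Hepatocyte markers, which check the labelled tissue, averaged 13.93 to 14.94 per mouse over all groups.

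On build GRCm38.p6 (RefSeq) Cyp4a12a lies at chr4:115299046-115332815 and Cyp4a12b at chr4:115411624-115439034. Mup20 lies on the same chromosome at chr4:62011337-62054143. Cyp2d9 lies at chr15:82452377-82456827, Elovl3 at chr19:46131897-46135694 and Hsd3b5 at chr3:98618636-98645534. Nudt7 lies at chr8:114133574-114154731, Slco1a1 at chr6:141907281-141946962 and Bcl6 at chr16:23965050-23988866. Promoter sequence was available for 5 of the 9 genes, in 7 windows that each run from 250 bases before to 50 bases after a start site (RefSeq, build GRCm38.p6). Both strands were searched for TTCNNNGAA, the core that Stat5 binds, for the same core with 1 more base in its middle, and for GTAAACA, the core that FoxO factors bind; the 3 motifs overlap in none of these windows. Over the 32851 windows of that length that were searched, TTCNNNGAA occurred in 8.3%, the longer form in 6.95% and GTAAACA in 3.65%. The search left out 1 chromosome, which holds none of the 9 genes. Among the 7 windows, TTCNNNGAA occurred in both windows of Bcl6 and nowhere else, the longer form in the window of Hsd3b5, and GTAAACA in none. These matches are letters in a short window, not tested sites. The windows of Bcl6 and Hsd3b5 are shown because they hold the matches, and a window of Nudt7 because that gene had the firmest response to food; capitals mark the matches.
Bcl6 first window, chr16:23981234-23981533, minus strand: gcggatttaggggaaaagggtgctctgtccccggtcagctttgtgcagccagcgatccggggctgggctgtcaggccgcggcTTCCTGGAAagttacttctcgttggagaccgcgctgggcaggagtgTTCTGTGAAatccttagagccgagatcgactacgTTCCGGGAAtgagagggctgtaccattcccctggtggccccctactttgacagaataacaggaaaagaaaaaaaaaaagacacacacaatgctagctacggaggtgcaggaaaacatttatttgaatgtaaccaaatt
Bcl6 second window, chr16:23988803-23989102, minus strand: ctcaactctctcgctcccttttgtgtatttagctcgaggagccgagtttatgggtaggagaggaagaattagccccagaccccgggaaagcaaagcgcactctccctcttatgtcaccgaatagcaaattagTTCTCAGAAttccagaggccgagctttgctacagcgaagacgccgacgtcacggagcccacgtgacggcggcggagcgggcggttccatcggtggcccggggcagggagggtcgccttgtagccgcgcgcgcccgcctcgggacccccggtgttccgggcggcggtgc
Hsd3b5 window, chr3:98645485-98645784, minus strand: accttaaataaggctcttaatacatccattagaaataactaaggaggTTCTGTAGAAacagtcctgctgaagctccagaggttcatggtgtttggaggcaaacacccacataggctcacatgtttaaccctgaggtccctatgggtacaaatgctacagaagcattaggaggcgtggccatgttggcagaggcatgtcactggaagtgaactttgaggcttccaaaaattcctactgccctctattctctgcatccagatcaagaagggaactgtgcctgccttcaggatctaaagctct
Nudt7 first window, chr8:114133324-114133623, plus strand: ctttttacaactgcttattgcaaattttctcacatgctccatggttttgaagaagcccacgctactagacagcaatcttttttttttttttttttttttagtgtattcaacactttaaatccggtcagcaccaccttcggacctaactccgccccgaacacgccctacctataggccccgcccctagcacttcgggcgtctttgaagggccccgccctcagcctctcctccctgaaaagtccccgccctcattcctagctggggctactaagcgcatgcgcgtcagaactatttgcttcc
In the first Bcl6 window the 3 matches began at -168, -122 and -88 from the start site, and in the second the single match began at -118. The Hsd3b5 match began at -203. The windows of Nudt7, Cyp2d9 and Slco1a1 held none of the 3 motifs.

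**Figure D1:**
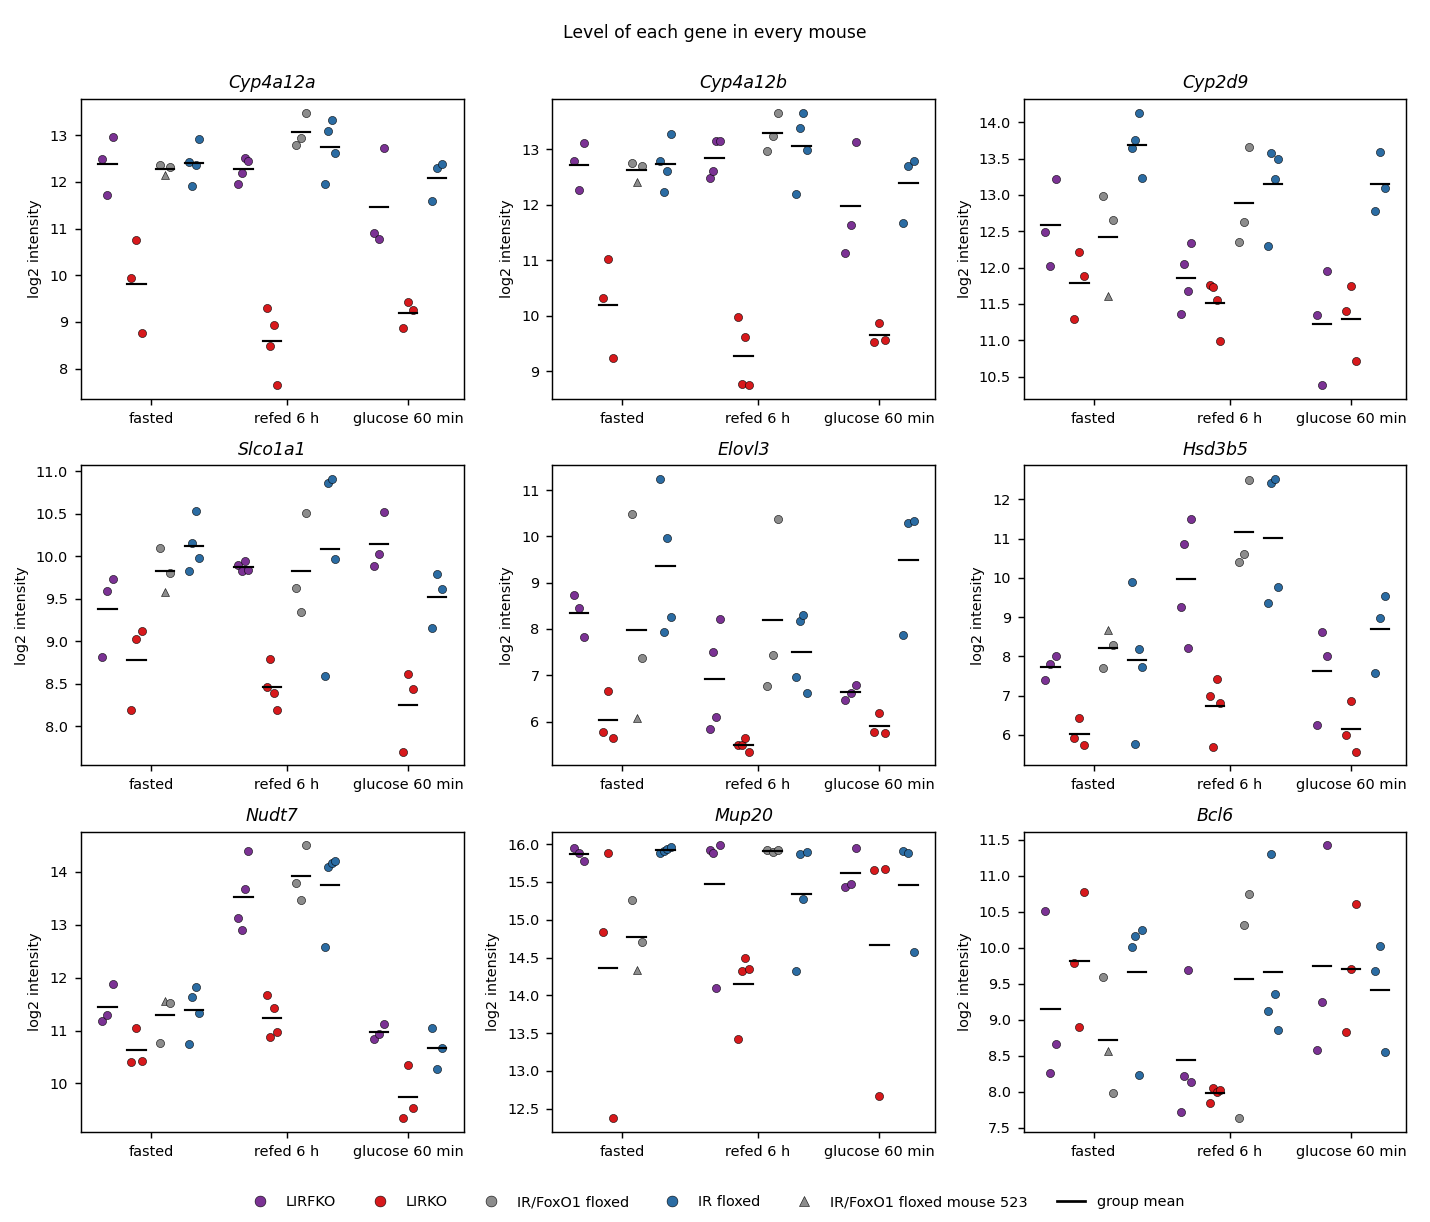
Log2 intensity (y axis) of each of the 9 genes in every mouse, by feeding state (x axis) and genotype (colour), with black bars at group means and a triangle for mouse IRF.fl_Fast_523. The LIRKO mice (red) sit apart from and below all other mice for Cyp4a12a in every state, while Bcl6 spreads over the same range in most groups.

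The first comparison asked what loss of the insulin receptor does to these genes. In LIRKO livers 5 of the 9 genes were lower than in IR floxed livers when fasted, 6 when refed and 6 after glucose, and none was higher at an adjusted p under 0.05 (limma, Benjamini-Hochberg over all genes). Among all genes, 3.92% were lower in LIRKO when fasted, 4.66% when refed and 3.91% after glucose. In fits of only the 2 groups compared, which rest on fewer mice, 2, 6 and 0 of the 9 passed in the fasted, refed and glucose states. The refed 6 then held Elovl3 but not Slco1a1 (adjusted p = 0.126). The share of all genes that passed in these smaller fits was not counted, so calls lost by the 9 genes cannot be set against it. The median change of the 9 genes was -1.79, -1.56 and -1.89 on the log2 scale in the 3 states, against 0.00 over all genes in each. Cyp4a12a, Cyp4a12b, Cyp2d9 and Slco1a1 fell in every state. Hsd3b5 fell in the refed state, Nudt7 in the refed and glucose states, and Elovl3 in the fasted and glucose states. Mup20 and Bcl6 did not pass in any state. The LIRKO mice lay below all IR floxed mice, without overlap, for 5 of the 9 genes when fasted, 7 when refed and 6 after glucose, against 7.04%, 5.9% and 7.67% of all genes.

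Cyp4a12a encodes a cytochrome P450 that hydroxylates the end carbon of fatty acids, arachidonic acid among them. When fasted its level was 9.95, 10.75 and 8.75 in LIRKO mice, against 12.43, 11.90, 12.37 and 12.92 in IR floxed mice. When refed it was 9.30, 8.48, 8.94 and 7.64 in LIRKO mice, against 11.95, 13.09, 13.33 and 12.62 in IR floxed mice. After glucose it was 8.87, 9.43 and 9.25 in LIRKO mice, against 11.59, 12.31 and 12.37 in IR floxed mice. The groups did not overlap in any state, and every LIRKO mouse lay below every mouse of the other genotypes that is in a comparison. The change was -2.55 ± 0.39 when fasted (SE, limma adjusted p = 0.000125), -3.97 ± 0.36 when refed (adjusted p = 1.52e-08) and -3.0 ± 0.41 after glucose (adjusted p = 4.43e-05) on the log2 scale, or 5.84-fold, 15.7-fold and 8.02-fold lower. In fits of the 2 groups alone the changes were -2.62, -4.16 and -3.06, with adjusted p = 0.0864, 0.00456 and 0.0957. Within slides that held both groups, the LIRKO mean differed by -3.62 and -2.97 when fasted, by -5.45 to -3.0 over 3 slides when refed, and by -3.06 and -2.15 after glucose.

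Cyp4a12b, a near-identical copy of Cyp4a12a that lies beside it on chromosome 4, changed with it: the probes correlated at r = 0.993 over the 37 mice, and cross-hybridisation between the copies cannot be told apart from shared expression. Its changes in LIRKO livers were -2.52 ± 0.36, -3.57 ± 0.33 and -2.77 ± 0.39 in the fasted, refed and glucose states. In the order of group means, both genes placed the 3 LIRKO groups last, below a gap of 1.65 (Cyp4a12a) and 1.78 (Cyp4a12b) from the glucose LIRFKO group, while the other neighbouring groups overlapped.

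Cyp2d9 encodes a cytochrome P450 that hydroxylates testosterone. Its levels were 11.29, 12.21 and 11.88 in fasted LIRKO mice, against 13.64, 13.76, 14.13 and 13.24 in fasted IR floxed mice. When refed they were 11.76, 11.74, 11.55 and 10.99 in LIRKO mice, against 12.30, 13.58, 13.22 and 13.50 in IR floxed mice. The groups were apart in both states and after glucose, with changes of -1.79 ± 0.37, -1.45 ± 0.34 and -1.89 ± 0.39 (limma adjusted p = 0.00265, 0.00409 and 0.00276). In fits of the 2 groups alone the glucose call was lost (adjusted p = 0.276). Within slides the LIRKO means differed by -2.25 and -1.95 when fasted, by -2.59 to -0.75 over 3 refed slides, and by -2.87 and -1.03 after glucose.

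Slco1a1 encodes an organic anion transporter of the hepatocyte's sinusoidal membrane. When fasted its level was 8.19, 9.03 and 9.12 in LIRKO mice, against 9.82, 10.15, 10.54 and 9.98 in IR floxed mice, a change of -1.34 ± 0.35 (limma adjusted p = 0.0152). When refed it was 8.46, 8.79, 8.39 and 8.19 in LIRKO mice, against 8.59, 10.86, 10.91 and 9.97 in IR floxed mice, so that 1 IR floxed mouse, IR.fl_Refed_566, lay among the LIRKO mice. The refed change was -1.56 ± 0.32 (adjusted p = 0.00114) and the one after glucose -1.27 ± 0.37 (adjusted p = 0.0279). The fasted call was lost without LIRKO mouse IR.KO_Fast_505 (adjusted p = 0.13), and the glucose call without any of IR.KO_GTT_690, IR.KO_GTT_697 and IR.fl_GTT_659 (adjusted p up to 0.109) or with slide as a term (adjusted p = 0.051). Within slides the LIRKO means differed by -1.79 and -1.42 when fasted, by -2.67 to -0.20 over 3 refed slides, and by -1.36 and -0.54 after glucose.

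Hsd3b5 encodes a steroid-reducing enzyme of the male mouse liver. When refed its level was 6.99, 5.69, 7.43 and 6.83 in LIRKO mice, against 9.36, 12.42, 12.52 and 9.77 in IR floxed mice. The groups did not overlap, and the change was -3.62 ± 0.70 (limma adjusted p = 0.00069), and -5.60 to -1.93 within 3 slides. When fasted it was 5.91, 6.43 and 5.74 in LIRKO mice, against 9.90, 5.77, 8.20 and 7.74 in IR floxed mice, with overlap and a difference of -1.81 ± 0.76 (adjusted p = 0.164). After glucose the difference was -2.21 ± 0.81 (adjusted p = 0.0936). LIRKO levels of Hsd3b5, refed included, reached down to the column medians, so the floor limits the size of these differences.

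Nudt7 encodes a peroxisomal enzyme that breaks down coenzyme A. When refed its level was 11.67, 10.87, 11.44 and 10.97 in LIRKO mice, against 12.57, 14.10, 14.18 and 14.20 in IR floxed mice. The groups were apart, and the change was -2.47 ± 0.27, or 5.55-fold lower (limma adjusted p = 3.93e-07), and -3.13 to -1.14 within 3 slides. After glucose the change was -1.02 ± 0.31 (adjusted p = 0.0421), a call lost without any of IR.KO_GTT_667, IR.KO_GTT_690, IR.KO_GTT_697, IR.fl_GTT_659 and IR.fl_GTT_699 (adjusted p up to 0.248) or with slide as a term (adjusted p = 0.0659). Within 2 slides the glucose difference was -0.75 and -0.69. When fasted the difference was -0.80 ± 0.30 (adjusted p = 0.103).

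Elovl3 encodes an enzyme that lengthens very long chain fatty acids. When fasted its level was 5.78, 6.66 and 5.65 in LIRKO mice, against 11.24, 7.93, 9.97 and 8.27 in IR floxed mice. The LIRKO levels lie close to the column medians, near the bottom of the scale, so the floor limits the size of the change. The change was -2.97 ± 0.81 when fasted (limma adjusted p = 0.0211) and -3.24 ± 0.86 after glucose (adjusted p = 0.0172). When refed, LIRKO mice had 5.49, 5.49, 5.64 and 5.35, against 6.95, 8.18, 8.29 and 6.62 in IR floxed mice, apart but with a difference of -1.27 ± 0.74 (adjusted p = 0.347). In a fit of these 2 groups alone the refed difference was -2.02 and passed (adjusted p = 0.0352). Within slides the difference was -4.31 and -2.49 when fasted, -2.83 to -1.32 over 3 refed slides, and -4.55 and -1.70 after glucose. The fasted call was lost without any of IR.KO_Fast_505, IR.KO_Fast_550 and IR.fl_Fast_542 (adjusted p up to 0.0985). The glucose call was lost without any of IR.KO_GTT_690, IR.KO_GTT_697, IR.fl_GTT_659 and IR.fl_GTT_691 (adjusted p up to 0.0816).

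Mup20 encodes darcin, a male urinary pheromone, and belongs to a family of near-identical genes whose transcripts its probe may share. Its levels reached the top of the measuring range, taken as values above 15.8, in all 4 fasted IR floxed mice (15.88 to 15.96). When fasted it was 14.84, 15.88 and 12.38 in LIRKO mice, with a difference of -1.50 ± 0.61 from IR floxed (limma adjusted p = 0.144). Since both groups hold mice at the top of the range, its size is not measured. When refed it was 13.43, 14.33, 14.49 and 14.35 in LIRKO mice, against 14.32, 15.87, 15.28 and 15.90 in IR floxed mice, with a difference of -1.51 ± 0.56 (adjusted p = 0.0822). Its second probe correlated with the first at r = 0.799 over the 37 mice.

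Bcl6 encodes a transcriptional repressor that binds many of the sites Stat5 binds and holds down female-biased genes in male liver. When refed its level was 7.84, 8.05, 8.0 and 8.03 in LIRKO mice, against 9.12, 11.31, 9.36 and 8.85 in IR floxed mice. The refed LIRKO mice were close together and all lower, yet the difference of -1.42 ± 0.71 did not pass (limma adjusted p = 0.242, 95% confidence interval -2.87 to 0.03). In the other states the levels overlapped, with differences of 0.26 ± 0.77 when fasted and 0.30 ± 0.82 after glucose. Bcl6 passed in none of the 24 comparisons.

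**Figure D2:**
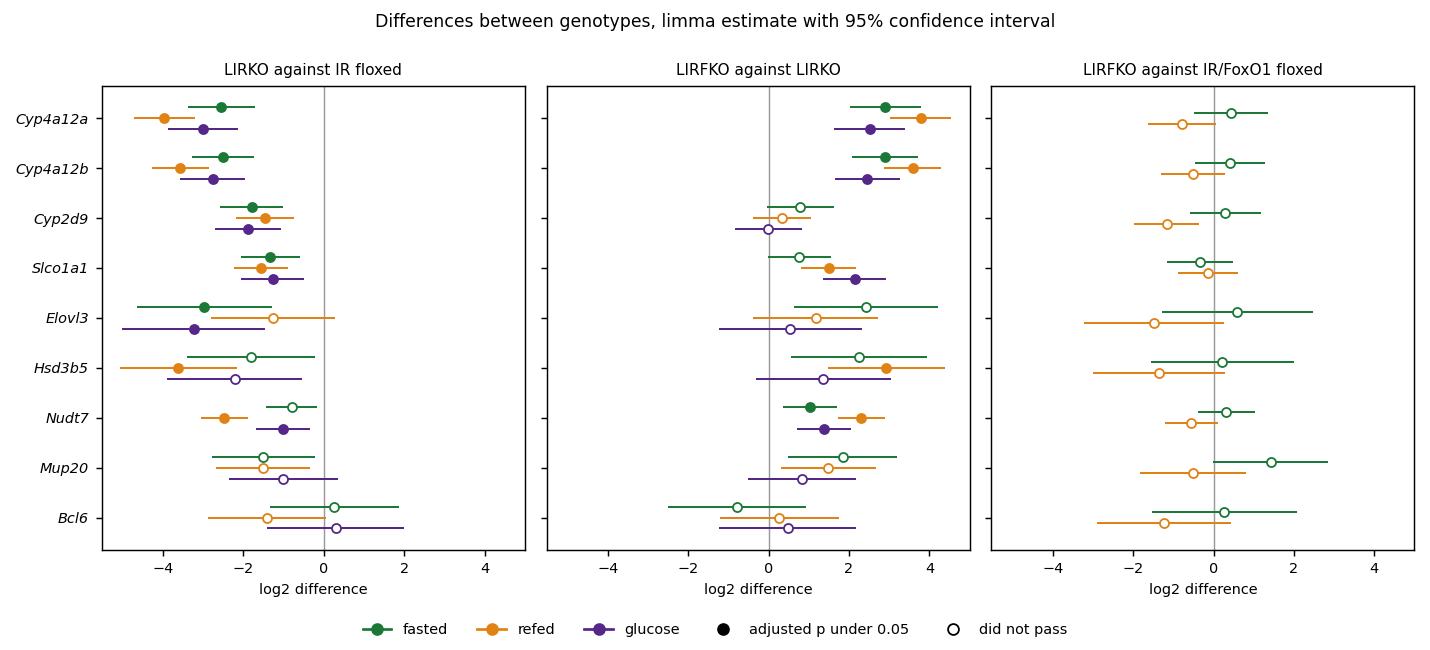
Log2 difference (x axis) of each gene (y axis) between genotypes, as the limma estimate with its 95% confidence interval, in fasted, refed and glucose-treated mice, with filled points at an adjusted p under 0.05. Filled points stand left of 0 for LIRKO against IR floxed and right of 0 for LIRFKO against LIRKO, and no point is filled for LIRFKO against IR/FoxO1 floxed.

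The second comparison asked whether the same genes differ when FoxO1 is deleted as well. In LIRFKO livers none of the 9 genes passed against IR/FoxO1 floxed livers, fasted or refed (limma). Among all genes 0.00445% passed in either direction when fasted, where the deleted genes did not pass either, and 0.378% when refed. At an unadjusted p under 0.05, 1 of the 9 passed in each state, against 3.64% of all genes when fasted and 10.4% when refed. Mup20 had the largest fasted difference of the 9, 1.42 (1.31 without mouse IRF.fl_Fast_523), which did not pass. Its levels were 15.77 to 15.95 in fasted LIRFKO mice, 2 of them at the top of the range. In fasted IR/FoxO1 floxed mice they were 14.34 to 15.26, without overlap. Cyp4a12a was 12.48, 11.71 and 12.97 in fasted LIRFKO mice, against 12.36, 12.14 and 12.31 in fasted IR/FoxO1 floxed mice, a difference of 0.43 ± 0.44 (95% confidence interval -0.47 to 1.33). The plain group means were 12.39 and 12.27. Within the single slide that held both groups the difference was -0.54, the opposite sign, from 1 LIRFKO and 2 IR/FoxO1 floxed mice. When refed it was 11.95, 12.19, 12.50 and 12.44 in LIRFKO mice, against 12.78, 12.95 and 13.48 in IR/FoxO1 floxed mice. The refed groups did not overlap, but the difference of -0.78 ± 0.40 did not pass (adjusted p = 0.523, interval -1.61 to 0.05). Cyp2d9 was 11.36, 12.05, 11.68 and 12.34 in refed LIRFKO mice, against 12.35, 12.63 and 13.67 in refed IR/FoxO1 floxed mice, a difference of -1.16 ± 0.38 (adjusted p = 0.204). All 9 genes were estimated lower in refed LIRFKO livers, from -1.47 (Elovl3) to -0.14 (Slco1a1). Their median refed change was -0.78, against -0.001 over all genes. The median fasted change, with mouse IRF.fl_Fast_523 in the fit, was 0.31. Without mouse IRF.fl_Fast_523 none of the 9 genes passed in either state, and the fasted difference of Cyp4a12a was 0.30.

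The knockout effect of the 2 lines was then compared directly, as the difference between LIRFKO against IR/FoxO1 floxed and LIRKO against IR floxed, which share no mice. Cyp4a12a and Cyp4a12b differed between the lines in both states and Nudt7 when refed, so 2 of the 9 genes passed when fasted and 3 when refed. In all of these the effect was higher in the LIRFKO line. When refed this was a smaller estimated fall. When fasted the LIRFKO-line estimates were above 0, at 0.43 for Cyp4a12a and 0.41 for Cyp4a12b (0.30 and 0.22 without mouse IRF.fl_Fast_523), and did not pass. Among all genes 0.449% passed in that direction when fasted and 0.458% when refed. For Cyp4a12a the difference of effects was 2.97 ± 0.56 when fasted (limma adjusted p = 0.00469) and 3.19 ± 0.53 when refed (adjusted p = 0.00102). For Cyp4a12b it was 2.93 ± 0.52 (adjusted p = 0.0031) and 3.06 ± 0.49 (adjusted p = 0.000691). For Nudt7 it was 1.92 ± 0.40 when refed (adjusted p = 0.0101). Cyp2d9 had 2.09 ± 0.53 when fasted and did not pass (adjusted p = 0.0507), with 0.29 ± 0.50 when refed. Without mouse IRF.fl_Fast_523 the fasted values were 2.86 (adjusted p = 0.0172) for Cyp4a12a, 2.75 (adjusted p = 0.0117) for Cyp4a12b and 1.76 (adjusted p = 0.156) for Cyp2d9. The fasted Cyp4a12a call was lost without LIRKO mouse IR.KO_Fast_550 (adjusted p = 0.0521), and the refed Nudt7 call without IR/FoxO1 floxed mouse IRF.fl_Refed_473 (adjusted p = 0.0509) or in a fit of the 4 groups alone (adjusted p = 0.0654).

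Set directly against LIRKO livers, LIRFKO livers were higher in 3 of the 9 genes when fasted, 5 when refed and 4 after glucose, and lower in none. Among all genes 3.29%, 3.66% and 3.85% were higher in LIRFKO in the 3 states. In fits of the 2 groups alone 0, 5 and 1 of the 9 passed, and the share of all genes was not counted there. The LIRFKO mice lay above all LIRKO mice for 5, 6 and 5 of the 9 genes, against 8.04%, 6.4% and 10% of all genes. The LIRKO mice of this comparison are also those set against IR floxed mice, and since the 2 knockouts come from different lines, line and FoxO1 loss cannot be told apart in it. After glucose Insr was also lower in LIRFKO than in LIRKO livers, without overlap (-0.84 ± 0.24, limma adjusted p = 0.0295). The glucose groups thus differed in receptor transcript as well. Cyp4a12a was higher by 2.90 ± 0.42, 3.78 ± 0.36 and 2.51 ± 0.41 when fasted, refed and after glucose (limma adjusted p = 5.86e-05, 4.64e-08 and 0.00033), and Cyp4a12b by 2.90 ± 0.39, 3.59 ± 0.34 and 2.45 ± 0.39. After glucose Cyp4a12a was 10.90, 10.78 and 12.72 in LIRFKO mice, against 8.87, 9.43 and 9.25 in LIRKO mice, without overlap. Within the single fasted slide and the single glucose slide that held both genotypes the Cyp4a12a means were 2.96 and 3.85 higher in LIRFKO, and over 3 refed slides 3.2 to 4.55 higher.

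Nudt7 was 13.13, 12.90, 13.69 and 14.40 in refed LIRFKO mice, against 11.67, 10.87, 11.44 and 10.97 in refed LIRKO mice. The groups were apart, with a rise of 2.30 ± 0.27 (limma adjusted p = 1.94e-06), and the rise after glucose was 1.38 ± 0.31 (adjusted p = 0.00665). When fasted the rise was 1.02 ± 0.32 just inside the threshold (adjusted p = 0.04997), and the call was lost without any 1 of the 6 mice of these groups (adjusted p up to 0.33) and without mouse IRF.fl_Fast_523 (adjusted p = 0.0557). Hsd3b5 was 9.25, 10.87, 8.22 and 11.51 in refed LIRFKO mice, against 6.99, 5.69, 7.43 and 6.83 in refed LIRKO mice, a rise of 2.93 ± 0.70 (adjusted p = 0.00797). Within 3 refed slides the rise was 2.02 to 2.79 for Nudt7 and 1.23 to 5.19 for Hsd3b5.

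Slco1a1 was 9.90, 9.83, 9.95 and 9.84 in refed LIRFKO mice, against 8.46, 8.79, 8.39 and 8.19 in refed LIRKO mice. The rise was 1.49 ± 0.32 when refed (limma adjusted p = 0.00293) and 2.14 ± 0.37 after glucose (adjusted p = 0.000493), and the fasted difference was 0.76 ± 0.37 (adjusted p = 0.257).

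Cyp2d9 did not pass in any state, with differences of 0.78 ± 0.39, 0.34 ± 0.34 and -0.01 ± 0.39 between LIRFKO and LIRKO livers. The refed interval was -0.36 to 1.04 and the glucose interval -0.81 to 0.79. Both stop short of a rise the size of the estimated fall of Cyp2d9 in LIRKO against IR floxed livers (-1.45 and -1.89). The error of that fall is not counted here. Cyp2d9 was also lower in fasted IR/FoxO1 floxed mice (12.99, 11.61 and 12.66) than in fasted IR floxed mice (13.64, 13.76, 14.13 and 13.24), a difference of -1.31 ± 0.37 that did not pass (adjusted p = 0.27) and was -0.96 without mouse IRF.fl_Fast_523. Elovl3 had differences of 2.41 ± 0.86, 1.17 ± 0.74 and 0.54 ± 0.86 between LIRFKO and LIRKO livers, none of which passed (smallest adjusted p = 0.0972). Mup20 had 1.84, 1.48 and 0.83, none of which passed either (smallest limma adjusted p = 0.0936). Between fasted IR/FoxO1 floxed and IR floxed mice Mup20 differed by -1.08 (adjusted p = 0.737), and by -0.97 without mouse IRF.fl_Fast_523. Between the 2 floxed lines none of the 9 genes passed when fasted or refed (limma), against 0.0356% and 0.0845% of all genes. At an unadjusted p under 0.05, 1 and 0 of the 9 did, against 7.48% and 6.11% of all genes.

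The third comparison asked how the genes answer food and glucose within each genotype. Refeeding for 6 h raised Nudt7 in LIRFKO and in both floxed lines, and Hsd3b5 in the 2 floxed lines. None of the 9 genes passed in LIRKO livers (limma), where 2 did at an unadjusted p under 0.05, as did 12.2% of all genes. Among all genes 0.987% rose on refeeding in LIRFKO, 1.85% changed in either direction in LIRKO, and 2.02% rose in IR/FoxO1 floxed and 2.12% in IR floxed livers. The other 7 genes passed in no genotype.

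Nudt7 was 13.13, 12.90, 13.69 and 14.40 in refed LIRFKO mice, against 11.18, 11.29 and 11.87 in fasted ones, a rise of 1.99 ± 0.29 (limma adjusted p = 0.000535). In LIRKO mice it was 11.67, 10.87, 11.44 and 10.97 when refed, against 10.40, 11.06 and 10.42 when fasted, with overlap and a difference of 0.70 ± 0.31 (adjusted p = 0.335). In IR/FoxO1 floxed mice it was 13.80, 13.48 and 14.50 when refed, against 10.77, 11.56 and 11.52 when fasted, a rise of 2.86 ± 0.31 or 7.24-fold (adjusted p = 7.35e-06, and 2.97 with adjusted p = 8.66e-05 without mouse IRF.fl_Fast_523). In IR floxed mice it was 12.57, 14.10, 14.18 and 14.20 when refed, against 10.75, 11.64, 11.82 and 11.33 when fasted, a rise of 2.38 ± 0.27 or 5.2-fold (adjusted p = 2.1e-05, and 0.0689 in a fit of these 2 groups alone). In the order of its group means, the 3 refed groups other than LIRKO came first, 2.08 above the next group and apart from it, and the glucose LIRKO group came last, 0.88 below the fasted LIRKO group and apart from it. Within slides refed minus fasted was 2.50 in LIRFKO (1 slide), -0.08 and 0.47 in LIRKO, 2.31 in IR/FoxO1 floxed (1 slide) and 0.94 and 3.43 in IR floxed mice. The 2 probes of Nudt7 correlated at r = 0.973 over the 37 mice.

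Between LIRKO and IR floxed mice the refeeding response of Nudt7 differed by -1.68 ± 0.39, which did not pass over all genes (limma adjusted p = 0.0893). Without IR floxed mouse IR.fl_Refed_566, whose refed level of 12.57 stood apart from 14.10 to 14.20 in the other 3, the difference was -1.98 and passed (adjusted p = 0.0095). Leaving out the lowest refed IR floxed level widens the difference by construction, so that pass is no independent support. With all 37 mice in the fit, 0.165% of all genes passed. In the tests of the refeeding response of LIRFKO against IR/FoxO1 floxed, and of LIRFKO against LIRKO, none of the 9 passed (limma), against 0.00445% and 0.0222% of all genes. At an unadjusted p under 0.05, 3 and 1 of the 9 did, against 4.06% and 5.88% of all genes.

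Hsd3b5 was 10.41, 10.61 and 12.48 in refed IR/FoxO1 floxed mice, against 7.70, 8.67 and 8.29 in fasted ones, a rise of 3.27 ± 0.81 (limma adjusted p = 0.0196). Without mouse IRF.fl_Fast_523 it was 3.62 (adjusted p = 0.0454). In IR floxed mice it was 9.36, 12.42, 12.52 and 9.77 when refed, against 9.90, 5.77, 8.20 and 7.74 when fasted, a rise of 2.82 ± 0.71 (adjusted p = 0.0215), with overlap. Both calls depended on single mice. The IR/FoxO1 floxed call was lost without any of IRF.fl_Refed_467, IRF.fl_Fast_516 and IRF.fl_Fast_533 (adjusted p up to 0.181). The IR floxed call was lost without any of IR.fl_Refed_506, IR.fl_Refed_508, IR.fl_Fast_486 and IR.fl_Fast_552 (adjusted p up to 0.134) or in a fit of these 2 groups alone (adjusted p = 0.335). In LIRFKO mice the difference was 1.69 ± 0.75 (adjusted p = 0.304) and in LIRKO mice 1.02 ± 0.80 (adjusted p = 0.717).

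**Figure D3:**
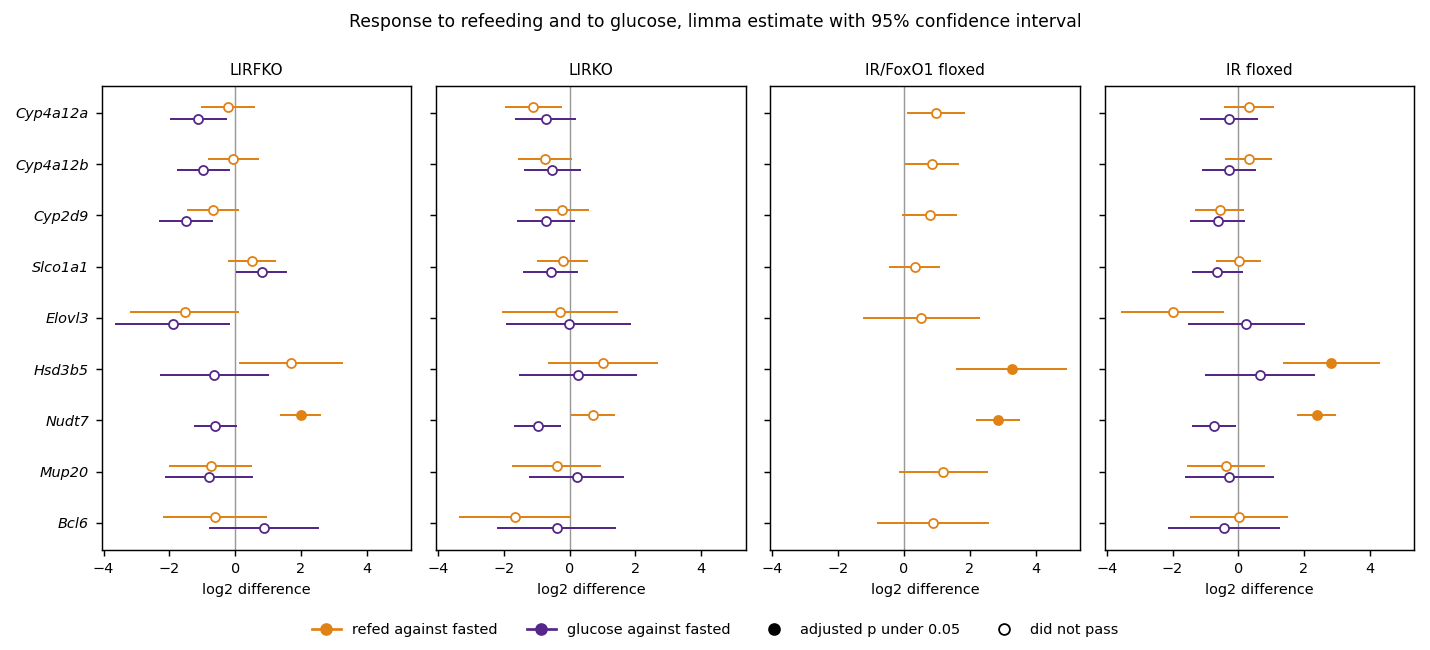
Log2 difference (x axis) of each gene (y axis) between refed or glucose-treated and fasted mice of 4 genotypes, as the limma estimate with its 95% confidence interval, with filled points at an adjusted p under 0.05. Nudt7 is filled for refeeding in LIRFKO, IR/FoxO1 floxed and IR floxed mice and open in LIRKO mice, and no glucose point is filled.

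Elovl3 was 6.95, 8.18, 8.29 and 6.62 in refed IR floxed mice, against 11.24, 7.93, 9.97 and 8.27 in fasted ones, a difference of -1.99 ± 0.75 that did not pass (limma adjusted p = 0.163). Cyp4a12a had a difference of -1.10 ± 0.41 in refed against fasted LIRKO livers (adjusted p = 0.207) and of 0.98 ± 0.41 in IR/FoxO1 floxed livers (adjusted p = 0.243), which was 0.82 without mouse IRF.fl_Fast_523 (adjusted p = 0.551).

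After glucose none of the 9 genes passed against the fasted state in LIRFKO, LIRKO or IR floxed livers (limma), against 0.654%, 0.596% and 0.16% of all genes. At an unadjusted p under 0.05, 5, 1 and 1 of the 9 did, against 12.3%, 11.3% and 8.5% of all genes. The nearest was Cyp2d9 in LIRFKO mice, at 11.35, 10.38 and 11.95 after glucose, against 12.50, 12.03 and 13.23 when fasted, a difference of -1.51 ± 0.39 (adjusted p = 0.0611). Without mouse IRF.fl_Fast_523, which is in neither group, that adjusted p was 0.0493. The refeeding and glucose comparisons of a genotype share its fasted mice. None of the 9 genes passed for the difference in glucose response between LIRKO and IR floxed or between LIRFKO and LIRKO mice, against 0% and 0.0578% of all genes (limma). At an unadjusted p under 0.05, 0 and 1 of the 9 did, against 6.86% and 8.93% of all genes.

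Other genes of the pathway were read from lists. Among all genes, 4.14%, 6.95% and 4.39% were higher in LIRKO than in IR floxed livers in the fasted, refed and glucose states, beside the 3.92%, 4.66% and 3.91% that were lower. In LIRFKO against LIRKO livers 3.23%, 4.43% and 3.73% of all genes were lower. Of 16 measured genes of growth hormone signalling, 3 were lower and 1 higher in fasted LIRKO than in fasted IR floxed livers, 4 lower and 1 higher when refed, and 3 lower after glucose. Ghr, the growth hormone receptor, changed by -1.55 ± 0.27, -1.38 ± 0.25 and -0.94 ± 0.29 in the fasted, refed and glucose states (limma adjusted p = 0.000541, 0.000321 and 0.0408). Igf1, the liver's main growth factor output of growth hormone, changed by -2.41 ± 0.27, -2.74 ± 0.25 and -2.45 ± 0.29, and Igfals, its carrier subunit, by -1.53 ± 0.35, -1.89 ± 0.32 and -1.52 ± 0.37. Socs3, an inhibitor of cytokine signals, was 1.34 ± 0.27 higher when fasted. The transcription factors Stat5a and Stat5b and the feedback inhibitors Socs2 and Cish did not pass in these 3 comparisons. Stat5b had differences of -0.23 ± 0.14, 0.18 ± 0.13 and 0.16 ± 0.15, and Cish of 0.42 ± 0.64, 0.79 ± 0.59 and -0.80 ± 0.68.

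In LIRFKO against LIRKO livers, 3, 4 and 4 of the 16 were higher and 0, 0 and 1 lower when fasted, refed and after glucose. Ghr rose by 1.85 ± 0.29, 1.55 ± 0.25 and 1.38 ± 0.29 and Igf1 by 2.52 ± 0.29, 2.59 ± 0.25 and 2.43 ± 0.29 in LIRFKO. Against IR/FoxO1 floxed livers none of the 16 passed in LIRFKO livers in either state. The knockout effect on Igf1 differed between the lines by 2.99 ± 0.38 when fasted (limma adjusted p = 0.000167) and 2.57 ± 0.36 when refed (adjusted p = 0.000145), and that on Ghr by 1.63 ± 0.39 when fasted (adjusted p = 0.0349). Without mouse IRF.fl_Fast_523 the fasted values were 2.95 for Igf1 (adjusted p = 0.00049) and 1.51 for Ghr, which no longer passed (adjusted p = 0.103). Without that mouse too, none of the genes of this list or of the lists that follow passed in fasted LIRFKO against IR/FoxO1 floxed livers.

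Of 18 measured further genes with higher expression in male liver, 8, 11 and 5 were lower in LIRKO than in IR floxed livers when fasted, refed and after glucose, and 0 were higher. Their median change was -0.90, -1.12 and -0.76, against 0.00 over all genes in each state. Cyp2u1, Mup2, Mup3, Gstp2 and Serpina1e reached the top of the measuring range (highest levels 15.91 to 15.98), which limits the size of their changes. Nat8, an acetyltransferase, changed by -3.41 ± 0.44, -4.31 ± 0.41 and -2.13 ± 0.47, and Cyp7b1, an oxysterol hydroxylase, by -2.51 ± 0.45, -3.1 ± 0.41 and -2.21 ± 0.48. C6, a complement component, changed by -1.97 ± 0.40, -3.30 ± 0.37 and -2.60 ± 0.42. In LIRFKO against LIRKO livers, 6, 11 and 3 of the 18 were higher and 0 lower, and against IR/FoxO1 floxed livers 0 passed when fasted and 1, Obp2a (-1.31 ± 0.26), when refed. Obp2a averaged 5.76 over the mice compared, at the level of the column medians, so the floor limits its change. On refeeding 5 of the 18 rose in IR/FoxO1 floxed livers (4 without mouse IRF.fl_Fast_523), among them Cyp7b1 (2.76 ± 0.48, and 2.72 without that mouse) and Keg1 (2.49 ± 0.45, and 2.80), 1 rose in IR floxed livers, and 0 passed in LIRKO and LIRFKO livers.

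Of 23 measured genes with higher expression in female liver, 3, 13 and 6 were higher in LIRKO than in IR floxed livers in the fasted, refed and glucose states, and 0 were lower. Cyp2b13, a cytochrome P450, was higher by 2.54 ± 0.44, 2.95 ± 0.41 and 3.16 ± 0.47, and Cyp2b9 by 2.52 ± 0.51, 2.54 ± 0.46 and 1.90 ± 0.54. The median change of the list was 0.28, 0.82 and 0.22. Cyp2a4 of this list reached the top of the measuring range (highest level 15.87). In LIRFKO against LIRKO livers, 3, 10 and 2 of the 23 were lower and 0, 1 and 1 higher. Against IR/FoxO1 floxed livers none of the 23 passed in LIRFKO livers.

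Of 15 measured regulators of sex-biased expression, 1 was higher and 1 lower in fasted LIRKO against IR floxed livers, 3 higher and 4 lower when refed, and 1 lower after glucose. When refed, Cux2 and Trim24, which are regulators higher in female liver, rose by 1.55 ± 0.38 and 0.96 ± 0.24, and Hnf4a, a hepatocyte regulator, fell by 0.42 ± 0.13. In LIRFKO against LIRKO livers 3, 4 and 3 of the 15 were higher and 1, 1 and 1 lower. Against IR/FoxO1 floxed livers none of the 15 passed in LIRFKO livers. Cux2, Trim24 and Tox stand in both the female-biased and the regulator list, Onecut1 in the growth hormone and the regulator list, and Hnf4a among regulators and hepatocyte markers.

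**Figure D4:**
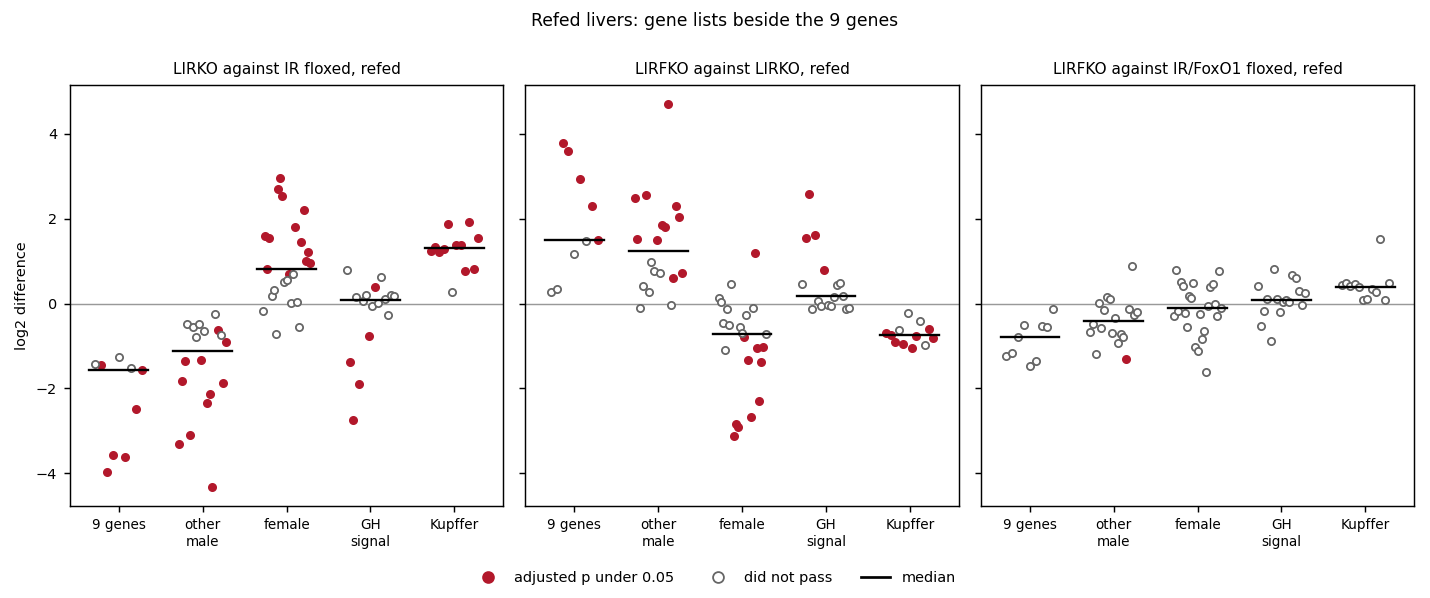
Log2 difference (y axis) in refed livers for the 9 genes and for the genes of 4 lists (x axis: further male-biased genes, female-biased genes, growth hormone signalling, Kupffer cell markers) in 3 comparisons between genotypes, 1 point per gene, red at an adjusted p under 0.05, bars at medians. Male-biased genes lie mostly below 0 and female-biased and Kupffer cell genes above 0 for LIRKO against IR floxed, and all points but 1, Obp2a, are open for LIRFKO against IR/FoxO1 floxed.

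Markers of other liver cells moved with part of these differences. In refed LIRKO against IR floxed livers 11 of 12 Kupffer cell and macrophage markers were higher, against 6.95% of all genes, with a median change of 1.31, and their mean level was 9.41 to 9.53 per LIRKO mouse against 8.04 to 8.29 per IR floxed mouse. When fasted 0 of the 12 passed, with means of 8.78 to 9.07 per LIRKO mouse against 8.36 to 8.74 per IR floxed mouse, which did not overlap, and after glucose 1 was higher. In refed LIRFKO against LIRKO livers 8 of the 12 were lower. Of 11 hepatocyte markers, 2, 4 and 4 were lower in LIRKO than in IR floxed livers in the 3 states, with median changes of -0.16, -0.36 and -0.67. Alb, Ttr, Serpina1c, Ass1 and Fgb reached the top of the measuring range (highest levels 15.90 to 15.99), which limits the size of their changes. In refed LIRKO livers 3 of 10 stellate cell, 3 of 10 endothelial, 0 of 6 cholangiocyte and 1 of 8 lymphocyte markers were higher and 0, 0, 0 and 1 lower, and no red cell marker passed in these comparisons. The markers Cd68, Reln, Des, Pecam1, Krt7, Epcam, Muc1, Cd3d, Cd8a, Cd79a, Ms4a1 and Klrb1c lay near the floor of the scale. So did Socs1 of the growth hormone list, Cyp2a22, A1bg and Hao2 of the female-biased list and Zhx2 of the regulators. The part of these markers in the results was not tested, and in bulk liver fewer cells of a type and less RNA per cell cannot be told apart.

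The 9 genes varied more between mice of 1 group than most genes do: their within-group SD ran from 0.51 (Nudt7 and Slco1a1) to 1.18 (Elovl3), against a median of 0.167 over all genes. Within groups Cyp4a12a and Cyp4a12b correlated at r = 0.95 over the 37 mice, Elovl3 and Hsd3b5 at r = 0.61, and Cyp2d9 and Slco1a1 at r = 0.60, while Bcl6 stayed at r between -0.08 and 0.26 with the other 8. Across the 11 group means Hsd3b5 and Nudt7 correlated at r = 0.91, Cyp2d9 and Elovl3 at r = 0.88 and Cyp4a12b and Slco1a1 at r = 0.90. These are descriptions, since the genes share mice, arrays and the normalisation.

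**Figure D5:**
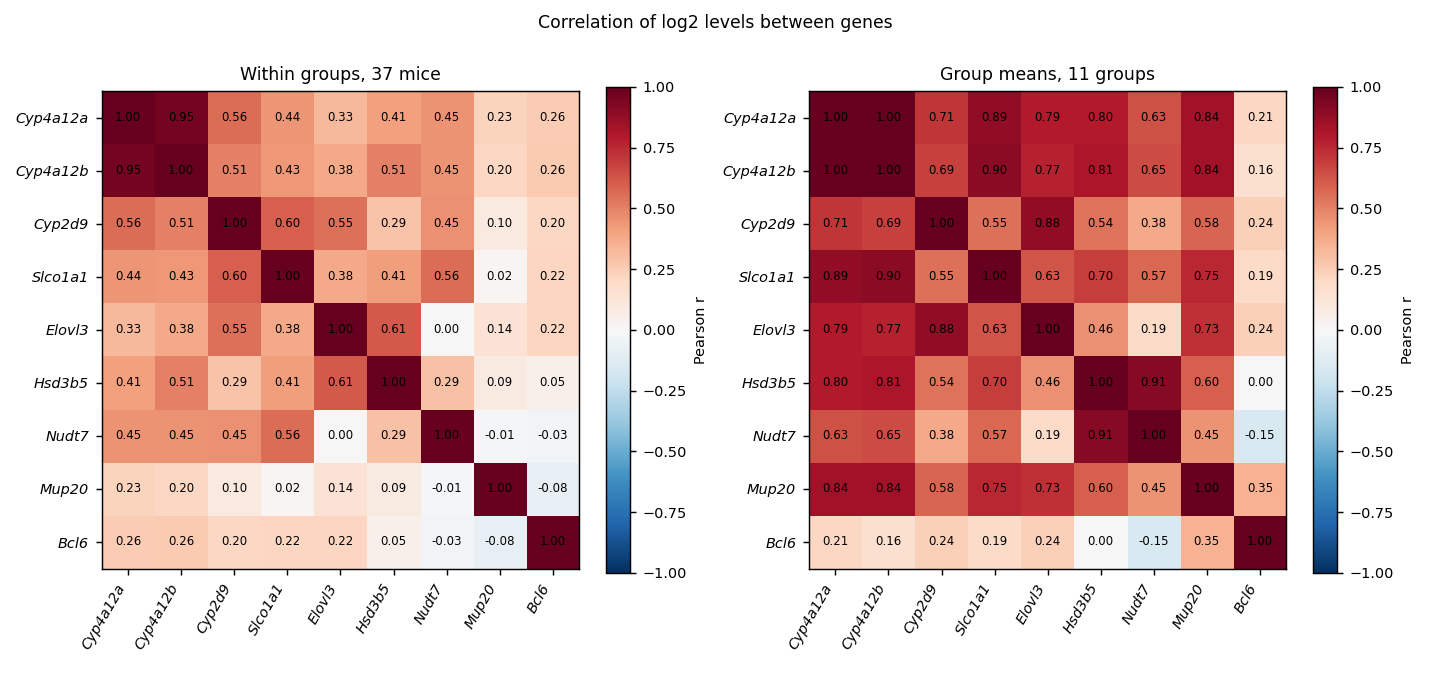
Pearson r between the log2 levels of each pair of the 9 genes (both axes), within groups over 37 mice on the left and across 11 group means on the right. Cyp4a12a and Cyp4a12b reach 0.95 within groups, and the row of Bcl6 is pale in both panels.

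Genes with the most similar levels over the 37 mice were looked up among 11233 other genes above the median level. The mean of the 9 standardised genes was matched best by C6 (r = 0.92), Abcg2, a transporter (r = 0.91), and Ugt2b1, a glucuronosyltransferase (r = 0.91). Cyp4a12a was matched best by Ces3a (r = 0.93), Cyp2d9 by its family member Cyp2d12 (r = 0.91), Mup20 by its family member Mup9 (r = 0.94), Hsd3b5 by Serpina4-ps1 (r = 0.94), Nudt7 by Tcaim (r = 0.93) and Slco1a1 by Akr1c20 (r = 0.84). Elovl3 was matched best by a probe annotated as Trav7d-2, a T cell receptor segment (r = 0.85), and no gene matched Bcl6 above r = 0.62 (Pkn2).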

How the data were processed

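The values used are log2 intensities of single dye channels in the series' value table, as deposited by the authors (45220 features, 38 columns, from 5.07 to 16.0). R 3.1.0 and limma 3.20.1 are named in the submitters' processing notes; how background was corrected or arrays were normalised is not stated there. GEO's platform annotation gave 1 gene to 33026 features and no gene to 12194, and the highest-mean probe stood for each of 22485 genes, with no filter on level. Groups came from the labels, replicates were separate mice, and mouse IRF.KO_GTT_724 was left out. In limma 3.58.1 all 37 samples were fitted together with a mean for every group, a dye term and a random array block (correlation 0.358, 25 residual degrees of freedom). Adjusted p is Benjamini-Hochberg over all genes within each of 24 comparisons, with a threshold of 0.05, and ± after a change is its SE. The fit was tested on simulated data. The 9 genes and the lists of pathway and cell type genes were chosen with earlier results of these data known, so counts over them are descriptions. Up to 4 list genes with the smallest p were to be named per comparison; Stat5a, Stat5b, Socs2, Cish, Cux2, Trim24, Hnf4a and Keg1 were named outside that rule, after their values were seen. Alternatives were other fits, scalings and probes, and leaving out mice in turn, with the array correlation then estimated on every 5th gene. Leaving out IRF.fl_Fast_523 for the list genes and deleted genes was added after the data were seen.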

Additional observations from a re-analysis of the deposited data

Results flagged for a closer look

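In groups of 4 mice, 36 sets of levels were tested for a mouse far from the other 3, and 4 were found, where chance gives about 1 in 20. The fasted IR floxed mouse IR.fl_Fast_491 had a Bcl6 level of 8.24, against 10.02 to 10.25 in the other 3. The refed LIRFKO mouse IRF.KO_Refed_524 had a Mup20 level of 14.1, against 15.88 to 15.98 in the other 3, which are at the top of the range, where their spread is compressed. The refed LIRKO mouse IR.KO_Refed_553 had a Mup20 level of 13.4, against 14.33 to 14.49 in the other 3. The refed IR floxed mouse IR.fl_Refed_566 had a Nudt7 level of 12.6, against 14.10 to 14.20 in the other 3, and it was also the lowest of its group for Cyp4a12a, Cyp4a12b, Cyp2d9, Hsd3b5, Slco1a1 and Mup20.

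The effect of knockout differed between the LIRFKO and the LIRKO line, by the test of that difference in limma, for Cyp4a12a by 2.97 when fasted and 3.19 when refed, for Cyp4a12b by 2.93 and 3.06, and for Nudt7 by 1.92 when refed (adjusted p = 0.00469, 0.00102, 0.0031, 0.000691 and 0.0101). Cyp4a12a and Cyp4a12b are near-identical copies and do not count as separate evidence.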

How the results depend on the processing

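No called change of the 9 genes reversed under any alternative. Of 39 called changes, 29 kept their call whichever mouse of the groups compared, or IRF.fl_Fast_523, was left out, and 19 under every processing alternative; most others were lost in fits of only the groups compared, which have fewer samples and, with 1 shared array or none, no array block. In those fits the number of the 9 genes past the threshold was 2 for fasted and 0 for glucose LIRKO against IR floxed, 0 for fasted and 1 for glucose LIRFKO against LIRKO, 0 for refed against fasted IR floxed, and 6 for the fasted difference of knockout effects, which was 4 with the mean of all probes. The share of all genes that passed in fits of only the groups compared was not counted. Refed against fasted IR/FoxO1 floxed gave 1 without the array block or the dye term, and LIRFKO glucose against fasted gave 1 over genes above the median; the cause was not tested. Leaving out mice in turn, LIRKO against IR floxed gave 3 to 6 fasted (3 without IR.KO_Fast_505), 6 to 7 refed and 3 to 6 after glucose (3 without IR.KO_GTT_690, IR.KO_GTT_697 or IR.fl_GTT_659); LIRFKO against LIRKO 2 to 3, 5 and 4; refed against fasted 1 to 2 in each floxed line; LIRFKO glucose against fasted and the difference in refeeding response of LIRKO and IR floxed 0 to 1; and the difference of knockout effects 1 to 4 fasted (1 without IR.KO_Fast_550) and 2 to 4 refed (2 without IRF.fl_Refed_473). In the promoter search the form of the Stat5 core with 1 more base was found in 1 of the 5 genes with a window, Hsd3b5, and TTCNNNGAA in 1, Bcl6. No paired analysis was possible because the mouse numbers differ between groups. Levels near the bottom (Elovl3 and Hsd3b5) and top (Mup20) of the range limit those changes.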

Other observations

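The mouse left out for its conflicting labels, IRF.KO_GTT_724, is titled as a glucose-treated LIRFKO mouse. Its levels were 12.51 for Cyp4a12a, 13.03 for Cyp4a12b, 11.85 for Cyp2d9, 7.61 for Elovl3, 7.18 for Hsd3b5, 10.39 for Nudt7, 10.29 for Slco1a1, 14.97 for Mup20 and 8.20 for Bcl6, with Insr at 6.51 and Foxo1 at 6.80.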
